A study of Rattus norvegicus with 9 samples.

Results

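The mitochondrially encoded genes are the 37 genes that the deposited table places on the chromosome MT, out of 32043 genes in all. They were chosen by that position alone, and none was left out. They comprise 13 mRNA genes, 2 rRNA genes, and 22 tRNA genes, as the biotype column of the table gives them. By the strand column, 28 of the genes lie on the plus strand and 9 on the minus strand, the latter being Mt-nd6 and 8 tRNA genes.

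Mitochondria carry a small circular genome of their own, which is transcribed from both strands into long precursors that span many genes. The precursors are cut mostly at the tRNAs that lie between the other genes, so that mRNAs, rRNAs, and tRNAs are released from the same transcript, and their later levels are also set by polyadenylation and decay. The mRNAs encode subunits of 4 complexes of oxidative phosphorylation, the rRNAs form the 2 subunits of the mitochondrial ribosome, and the tRNAs decode the mRNAs inside the organelle. All other mitochondrial proteins, including the polymerase and the factors that copy and process this genome, are encoded in the nucleus. Articular chondrocytes live with little oxygen and rely largely on glycolysis, while their mitochondria remain in use for signaling and matrix maintenance.

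The libraries came from knee cartilage of male Sprague-Dawley rats, bought at 8 weeks of age, in 3 groups of 3 libraries. Control rats had the joint capsule opened and closed again with sutures. The model group underwent the modified Hulth operation, in which knee ligaments and the medial meniscus are removed. The study's model protocol also included daily forced activity after surgery, which it does not name for control rats. Operated and control groups may therefore differ by more than the operation. The SYD-H group underwent the same modeling and received an extract of Shengyu decoction by gavage for 4 weeks. Tissue was collected 8 weeks after surgery. The study used 3 doses of the extract, and the labels of the sequenced libraries name SYD without a dose, so the name SYD-H follows the study. Its methods name only control and model tissue for sequencing, and the library names of the SYD group carry the letters CXTB, which the labels leave unexplained. The study also had a group given celecoxib, which it abbreviates as CXB, and the assignment of these 3 libraries to SYD rests on their labels alone. All 3 groups therefore had an opened joint, and the gavage was given on top of the destabilized joint. The sources do not say whether each library came from a separate rat, and p-values measure the spread between the libraries of a group.

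The libraries held 14914121 to 19510537 reads on genes, recovered from the deposited FPKM, a unit in which fragments are divided by the length of the gene and the size of the library. The 37 genes held 607339 to 822253 reads per library in the control group, 7251301 to 17071208 in those of the model group, and 3817491 to 13742821 in those of the SYD-H group. Their share of all reads was 4.05% to 4.86% in the control group, and it was 90.7%, 39.5%, and 81.3% in model libraries 1 to 3 and 23.7%, 34.7%, and 72.7% in SYD-H libraries 1 to 3. Model library 2 lay apart from the other model libraries, and SYD-H library 3 from the other SYD-H libraries. The library size behind the deposited FPKM was 2.01 to 2.18 times the recovered reads in the control group, 0.193 to 1.44 times in the model group, and 0.609 to 1.65 times in the SYD-H group. This size followed the reads outside the mitochondrial genes more closely. Those numbered 14306782 to 17373645 in control, 1744769 to 11106680 in model, and 5153851 to 12745818 in SYD-H. The library size was 3.00e+07 to 3.94e+07, 3.64e+06 to 2.64e+07, and 1.15e+07 to 2.84e+07 in these groups. The deposited FPKM of these genes was thus close to a ratio of their reads to those other reads. A fold change in FPKM is therefore larger than the change in the share of reads. The ratio of mean shares between model and control was 16.3, whereas the median ratio of mean FPKM over the 13 mRNA genes was 116. For this reason the genes were first compared within the mitochondrial reads of each library, where this scaling cancels.

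Of the mitochondrial reads, nearly all lay on the mRNA genes. The mRNA share was 98.1%, 97.0%, and 97.7% in control libraries 1 to 3, 92.3%, 97.5%, and 93.6% in model libraries 1 to 3, and 97.0%, 96.2%, and 94.4% in SYD-H libraries 1 to 3. The model range covered part of the control range, while the SYD-H libraries lay below every control library, at the closest 96.96% against 96.99%. The mean difference was −3.17 percentage points between model and control (exact permutation test, two-sided, p = 0.2) and −1.77 points between SYD-H and control (exact permutation test, p = 0.1). With 3 libraries against 3, the smallest p this test can give is 0.1, so no comparison of shares could pass 0.05.

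The rRNA share mirrored the mRNA share by construction, since the tRNA genes held few reads and the classes add up to all mitochondrial reads. The share of the rRNA genes was 1.74%, 2.89%, and 2.17% in control libraries 1 to 3. It was 7.62%, 2.43%, and 6.29% in model libraries 1 to 3, and 2.97%, 3.69%, and 5.54% in SYD-H libraries 1 to 3. All SYD-H libraries lay above all control libraries, whereas model library 2 fell within the control range. The group means were 2.27% ± 0.583 (SD, n = 3) for control, 5.45% ± 2.69 (SD, n = 3) for model, and 4.07% ± 1.32 (SD, n = 3) for SYD-H. The difference was 3.18 percentage points between model and control (exact permutation test, two-sided, p = 0.2), 1.80 points between SYD-H and control (exact permutation test, p = 0.1), and −1.38 points between SYD-H and model (exact permutation test, p = 0.5). The 95% Wilson interval of a share, which covers counting error only, was at most 0.0724 percentage points wide. The 3 libraries with the highest rRNA share, model libraries 1 and 3 and SYD-H library 3, were also the 3 with the highest mitochondrial share.

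The 2 rRNA genes lie side by side near the start of the genome. AY172581.9 (ENSRNOG00000030478, MT 68 to 1025 on the plus strand, 958 bases) is the shorter rRNA gene, and AY172581.24 (ENSRNOG00000043866, MT 1094 to 2664 on the plus strand, 1571 bases) is the longer. The positions and lengths are those of the deposited table, whose rat genome build is not given in the sources used here. They are separated by a single tRNA gene, AY172581.3. AY172581.24 alone held 1.10%, 2.02%, and 1.46% of mitochondrial reads in control libraries 1 to 3, 5.95%, 1.65%, and 4.81% in model libraries 1 to 3, and 2.20%, 2.73%, and 4.21% in SYD-H libraries 1 to 3. Its share lay above control in every SYD-H library, whereas that of AY172581.9 overlapped between all groups.

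Per base, the ratio of long to short rRNA reads was 1.04, 1.42, and 1.25 in control libraries 1 to 3. It was 2.18, 1.30, and 1.98 in model libraries 1 to 3 and 1.74, 1.74, and 1.94 in SYD-H libraries 1 to 3. All SYD-H libraries and model libraries 1 and 3 lay above the control range, and model library 2 lay inside it. The mean ratio was 1.24 ± 0.191 (SD, n = 3) in control, 1.82 ± 0.464 (SD, n = 3) in model, and 1.80 ± 0.115 (SD, n = 3) in SYD-H. On the log2 scale, the mean ratio differed from control by 0.53 in model (exact permutation test, two-sided, p = 0.2) and by 0.55 in SYD-H (exact permutation test, p = 0.1), and it differed by 0.02 between SYD-H and model (exact permutation test, p = 1). Taken over each class, the rRNA genes had fewer reads per base than the mRNA genes, with a ratio of rRNA to mRNA reads per base of 0.0799 to 0.134 in control, 0.112 to 0.372 in model, and 0.138 to 0.265 in SYD-H. Single mRNA genes lay lower than that, and both rRNA genes had a higher FPKM than Mt-atp8 in all 9 libraries. Neither the capture of rRNA by the library kit nor RNA quality was tested, so these values are not tissue levels of the rRNAs.

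**Figure D1:**
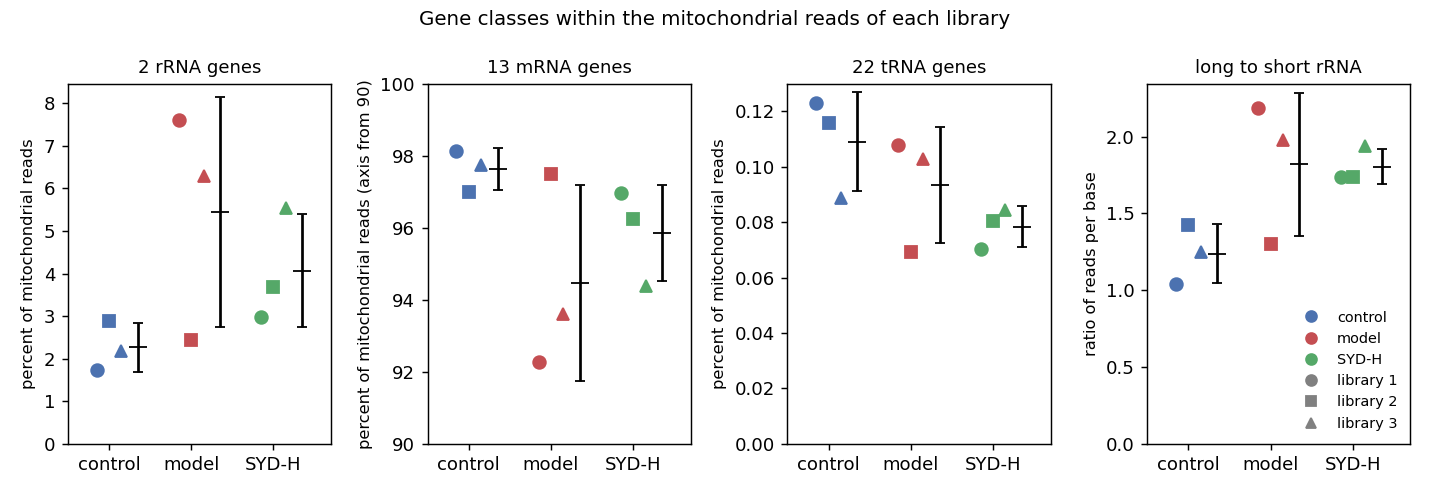
Share of the mitochondrial reads on the rRNA, mRNA, and tRNA genes (percent, the mRNA axis starting at 90) and the ratio of long to short rRNA reads per base, by group. Points are single libraries, and bars are the mean ± SD of 3 libraries. Model library 2 sits at the control level for rRNA (2.43%), and the other model libraries lie at 7.62% and 6.29%.

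The mRNA genes kept nearly the same order of level in all 9 libraries. Per base, Mt-co3, Mt-co2, and Mt-cyb held ranks 3, 4, and 5 in every library, and Mt-nd6 and Mt-atp8 held ranks 12 and 13. The first rank changed hands, since Mt-co1 was highest in the 3 control libraries and Mt-atp6 in the 6 operated libraries. Between the highest and the lowest library, FPKM of the mRNA genes differed 161-fold to 286-fold, whereas their shares of the mitochondrial mRNA reads differed only 1.08-fold (Mt-nd1) to 2.18-fold (Mt-atp8). The mRNA genes thus moved almost as a block, with small differences inside it.

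Complex V, the ATP synthase, receives Mt-atp6 and Mt-atp8 from this genome. Their joint share of the mRNA reads was 12.9%, 13.3%, and 13.3% in control libraries 1 to 3, 14.1%, 14.6%, and 14.2% in model libraries 1 to 3, and 15.2%, 14.5%, and 14.3% in SYD-H libraries 1 to 3. Every operated library lay above every control library, including model library 2. The difference from control was 1.11 percentage points for model and 1.46 points for SYD-H (p = 0.1 for each in a two-sided exact permutation test, the smallest possible). Nearly all of it was Mt-atp6 (MT 7919 to 8599, plus strand), which forms part of the proton channel and whose share of mRNA reads was 12.9% to 13.3% in control, 14.1% to 14.6% in model, and 14.3% to 15.2% in SYD-H.

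Mt-atp8 (MT 7758 to 7961) shares 43 bases with Mt-atp6 on the same strand, and reads there cannot be divided between them with certainty. Per base, Mt-atp6 held 123 to 291 times the reads of Mt-atp8, the highest ratio being that of model library 2. Its own share of mRNA reads was 0.0314%, 0.0250%, and 0.0273% in control libraries 1 to 3, 0.0329%, 0.0150%, and 0.0238% in model libraries 1 to 3, and 0.0304%, 0.0254%, and 0.0230% in SYD-H libraries 1 to 3. The share overlapped between all groups, and model library 2 was the lowest.

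Complex IV, cytochrome c oxidase, takes its catalytic core Mt-co1, Mt-co2, and Mt-co3 from this genome, which made up about as many mRNA reads as all other mRNA genes together. Their joint share was 51.9%, 54.4%, and 52.5% in control libraries 1 to 3, 51.7%, 47.2%, and 50.8% in model libraries 1 to 3, and 51.1%, 51.3%, and 53.2% in SYD-H libraries 1 to 3. The model libraries lay below the control libraries by 3.06 percentage points on average (exact permutation test, two-sided, p = 0.1), and the SYD-H range overlapped both other groups. The 3 subunits differed among themselves. Mt-co2, which carries the first copper centre, had a share of 8.04%, 8.48%, and 8.23% in control libraries 1 to 3, compared with 7.18%, 7.14%, and 7.22% in model libraries 1 to 3 and 7.31%, 7.14%, and 7.68% in SYD-H libraries 1 to 3. Both operated groups lay below control without overlap. Mt-co3, by contrast, was 12.1%, 12.9%, and 12.4% in control libraries 1 to 3, 12.6%, 12.4%, and 12.6% in model libraries 1 to 3, and 13.8%, 13.3%, and 13.2% in SYD-H libraries 1 to 3, where every SYD-H library lay above every library of both other groups on this scale. Mt-co1, the subunit that reduces oxygen, was 31.8% to 33.1% in control, 27.6% to 31.9% in model, and 29.9% to 32.3% in SYD-H, and the groups overlapped on this scale.

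Complex I, the NADH dehydrogenase, receives 7 of the mRNAs. Their joint share overlapped between all groups, with 23.3% to 25.7% in control, 25.6% to 29.2% in model, and 24.1% to 25.8% in SYD-H, but single members went different ways. Mt-nd2, a subunit of the membrane arm, was 5.06%, 4.77%, and 5.03% of mRNA reads in control libraries 1 to 3, 5.64%, 6.42%, and 5.89% in model libraries 1 to 3, and 5.88%, 5.96%, and 5.59% in SYD-H libraries 1 to 3. Mt-nd3, a small subunit near the quinone site, was 0.988%, 0.907%, and 0.985% in control libraries 1 to 3. Its share was 0.666%, 0.852%, and 0.682% in model libraries 1 to 3 and 0.724%, 0.730%, and 0.645% in SYD-H libraries 1 to 3. Mt-nd2 therefore lay higher and Mt-nd3 lower in both operated groups than in control, with no overlap. The ratio of mean shares to control was 1.21 (model) and 1.17 (SYD-H) for Mt-nd2, and it was 0.764 (model) and 0.729 (SYD-H) for Mt-nd3.

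Mt-nd5, the distal proton pump of the membrane arm, separated the model group from both others only as a share of mRNA reads. Its share was 3.86%, 3.23%, and 3.47% in control libraries 1 to 3, 4.10%, 4.87%, and 4.42% in model libraries 1 to 3, and 3.33%, 3.84%, and 3.49% in SYD-H libraries 1 to 3. All model libraries lay above all control and all SYD-H libraries, and the control and SYD-H ranges overlapped, with means of 3.52% ± 0.316 (SD, n = 3) and 3.56% ± 0.262 (SD, n = 3) against 4.46% ± 0.387 (SD, n = 3) in model. Mt-nd4l had a share of 0.836%, 0.638%, and 0.731% in control libraries 1 to 3, 0.833%, 0.974%, and 0.825% in model libraries 1 to 3, and 0.776%, 0.798%, and 0.740% in SYD-H libraries 1 to 3. It was lower in every SYD-H than in every model library, and the control range overlapped both. Mt-nd4l and Mt-nd4 share 7 bases and are carried on 1 bicistronic mRNA, and Mt-nd4 itself was 7.92%, 6.96%, and 7.79% in control libraries 1 to 3, 7.68%, 9.35%, and 7.82% in model libraries 1 to 3, and 7.63%, 7.71%, and 7.33% in SYD-H libraries 1 to 3, with overlap between all groups. Mt-nd1, of the membrane arm, was 6.08%, 5.92%, and 6.04% in control libraries 1 to 3, 5.96%, 5.76%, and 5.76% in model libraries 1 to 3, and 5.82%, 5.91%, and 5.63% in SYD-H libraries 1 to 3. It varied least of all 13 mRNA genes.

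Complex III receives Mt-cyb alone, which carries its b-type hemes. Mt-cyb had an FPKM of 1647, 1702, and 1476 in control libraries 1 to 3, 325257, 21067, and 168413 in model libraries 1 to 3, and 10837, 16941, and 82828 in SYD-H libraries 1 to 3, with all operated libraries above all control libraries. It made up 8.98% to 9.48% of the mRNA reads in control, 8.76% ± 0.219 (SD, n = 3) in model, and 8.41% to 8.89% in SYD-H, and SYD-H lay below control without overlap (difference −0.667 percentage points, exact permutation test, two-sided, p = 0.1).

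**Figure D2:**
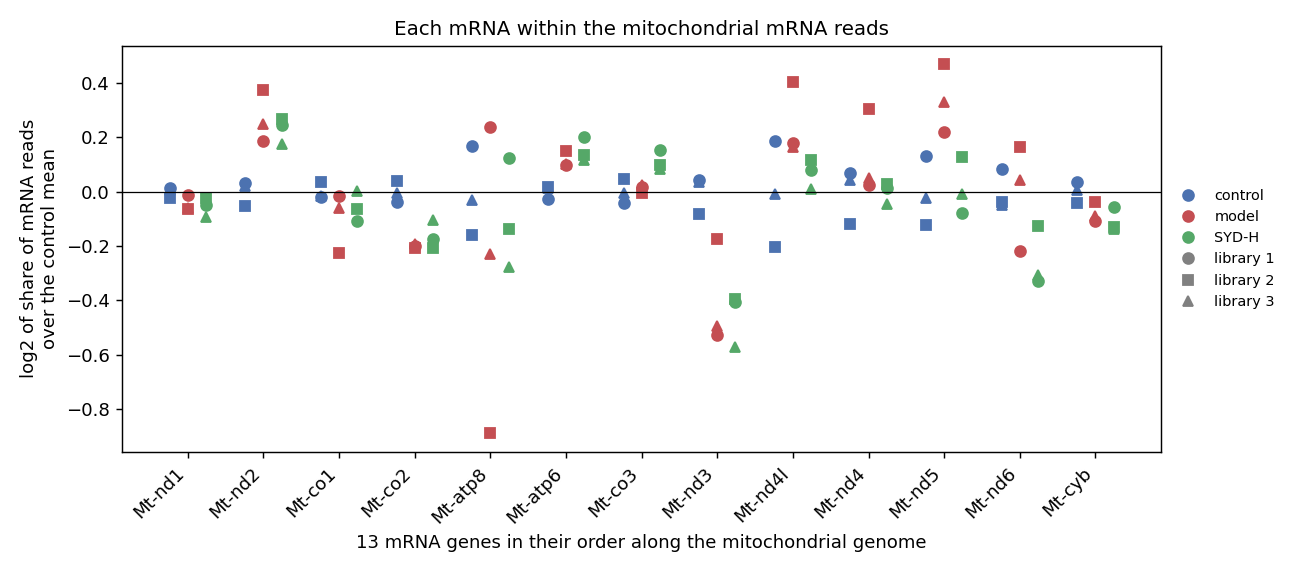
Share of each of the 13 mRNA genes in the mitochondrial mRNA reads of each library, as log2 of its ratio to the control mean, in genome order. Points are single libraries. Mt-nd2 and Mt-atp6 lie above 0 and Mt-co2 and Mt-nd3 below it in all 6 operated libraries.

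As shares of all mitochondrial reads, 6 of the 13 mRNA genes did not overlap between model and control (46.2%), 3 between SYD-H and model (23.1%), and 8 between SYD-H and control (61.5%). Over all 13898 genes tested, each taken as a share of the mitochondrial reads or of the other reads, whichever it belongs to, 27.6%, 10.5%, and 41.5% did not overlap in these comparisons. As shares of mRNA reads alone, the counts were 5, 3, and 8. Mt-co1 and Mt-nd1 were lower in model than in control only on the first scale, which the rRNA reads also enter, and Mt-nd5 was higher only on the second. Between SYD-H and control, Mt-co1 was lower only on the first scale and Mt-co3 higher only on the second, while Mt-co3 was higher in SYD-H than in model on both. The higher shares of Mt-nd2 and Mt-atp6 and the lower shares of Mt-co2 and Mt-nd3 held on both scales and in both operated groups. These groups were compared with the same 3 control libraries. In each case p was 0.1 (exact permutation test, two-sided), and these differences were small next to the change in total mitochondrial reads.

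The tRNA genes are 60 to 75 bases long and gave few reads. Their share of mitochondrial reads was 0.123%, 0.116%, and 0.0887% in control libraries 1 to 3, 0.108%, 0.0694%, and 0.103% in model libraries 1 to 3, and 0.0704%, 0.0804%, and 0.0845% in SYD-H libraries 1 to 3. The SYD-H libraries lay below the control libraries (difference −0.0307 percentage points, exact permutation test, two-sided, p = 0.1), and the model range overlapped both. The closest pair, SYD-H library 3 and control library 3, was not apart beyond counting error, with 95% Wilson intervals of 0.0830% to 0.0861% and 0.0822% to 0.0958%. Of the 22 tRNA genes, 11 had reads in all 9 libraries, and 3 (AY172581.13, AY172581.21, and AY172581.22) had none in any. Library kits for long RNA retain transcripts this short poorly, so these values are not levels of the mature tRNAs. The table names these genes by number and not by the amino acid they carry.

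Of the tRNA genes, 3 supplied 57.9% to 76.4% of the tRNA reads, namely AY172581.2 (MT 15348 to 15415, minus strand, behind Mt-cyb), AY172581.10 (MT 5185 to 5252, minus strand, between Mt-nd2 and Mt-co1), and AY172581.11 (MT 11665 to 11735, plus strand, just before Mt-nd5). AY172581.10 was 37.6%, 37.1%, and 33.6% of the tRNA reads in control libraries 1 to 3, 18.6%, 14.9%, and 14.3% in model libraries 1 to 3, and 8.30%, 17.7%, and 19.3% in SYD-H libraries 1 to 3. It was the leading tRNA gene in every control library, though in control library 3 by 219 reads to 218, and in none of the operated ones, where AY172581.2 led. The ratio of reads on AY172581.10 to those on AY172581.2 was 1.22, 1.52, and 1.00 in control libraries 1 to 3, 0.701, 0.263, and 0.356 in model libraries 1 to 3, and 0.171, 0.467, and 0.523 in SYD-H libraries 1 to 3. Both operated groups lay below control with no overlap (differences −0.808 and −0.861, each with p = 0.1 in a two-sided exact permutation test). This pair of genes was chosen after its values were seen.

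As shares of mitochondrial reads, 4 of the 22 tRNA genes did not overlap between model and control, against 27.6% of all genes tested, AY172581.10 and AY172581.7 being lower and AY172581.12 and AY172581.20 higher in model. AY172581.12 rested on 2, 1, and 1 reads in control libraries 1 to 3, at or under the 3 reads that a count of 0 allows. AY172581.20, next to Mt-nd6 on the minus strand, had 16, 13, and 21 reads in control libraries 1 to 3, 1049, 393, and 1349 in model libraries 1 to 3, and 28, 213, and 566 in SYD-H libraries 1 to 3. It was also lower in SYD-H than in model as a share of mitochondrial reads, with 0.00614%, 0.00542%, and 0.00857% in model libraries 1 to 3 and 0.000733%, 0.00315%, and 0.00412% in SYD-H libraries 1 to 3. That was the 1 tRNA gene of 22 apart between these groups, against 10.5% of all genes. Between SYD-H and control, 1 tRNA gene of 22 did not overlap, the lower AY172581.10, against 41.5% of all genes.

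The other tRNA genes with an adjusted p-value under 0.05 on the FPKM scale had fewer reads in control than in most operated libraries. Reads on AY172581.2 numbered 231, 232, and 218 in control libraries 1 to 3, 4894, 2860, and 6517 in model libraries 1 to 3, and 1307, 2067, and 4297 in SYD-H libraries 1 to 3. Reads on AY172581.11 numbered 59, 90, and 46 in control libraries 1 to 3, 2358, 203, and 1776 in model libraries 1 to 3, and 317, 475, and 961 in SYD-H libraries 1 to 3. Both were present in every library. Reads on AY172581.17, next to AY172581.11, numbered 32, 24, and 14 in control libraries 1 to 3, 1611, 167, and 767 in model libraries 1 to 3, and 219, 363, and 612 in SYD-H libraries 1 to 3. Reads on AY172581.16, before Mt-nd4l, numbered 27, 42, and 20 in control libraries 1 to 3, 870, 60, and 698 in model libraries 1 to 3, and 143, 325, and 507 in SYD-H libraries 1 to 3. Reads on AY172581.18 numbered 28, 41, and 52 in control libraries 1 to 3, 1237, 107, and 714 in model libraries 1 to 3, and 192, 338, and 769 in SYD-H libraries 1 to 3. Reads on AY172581.23, behind Mt-nd4, numbered 12, 41, and 15 in control libraries 1 to 3, 899, 89, and 532 in model libraries 1 to 3, and 59, 178, and 135 in SYD-H libraries 1 to 3. For these 4 genes model library 2 held the fewest reads of the model group. Reads on AY172581.19 numbered 1, 5, and 4 in control libraries 1 to 3, 61, 0, and 96 in model libraries 1 to 3, and 13, 43, and 50 in SYD-H libraries 1 to 3, with none in model library 2. Those on AY172581.14 numbered 3, 1, and 1 in control libraries 1 to 3, 371, 88, and 51 in model libraries 1 to 3, and 23, 27, and 351 in SYD-H libraries 1 to 3.

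The minus strand was represented by Mt-nd6 and 8 tRNA genes. Together they held 1.01%, 0.916%, and 0.904% of mitochondrial reads in control libraries 1 to 3, 0.764%, 1.02%, and 0.922% in model libraries 1 to 3, and 0.726%, 0.833%, and 0.733% in SYD-H libraries 1 to 3. SYD-H lay below control (difference −0.180 percentage points, exact permutation test, two-sided, p = 0.1), and the model libraries spanned the control range (difference −0.0428 points, exact permutation test, p = 0.9). Mt-nd6 alone (MT 13543 to 14061), the complex I subunit encoded apart from the others, was 0.932%, 0.856%, and 0.849% in control libraries 1 to 3, 0.756%, 0.985%, and 0.906% in model libraries 1 to 3, and 0.699%, 0.806%, and 0.710% in SYD-H libraries 1 to 3 as a share of mRNA reads. It lay lower in SYD-H than in control and shares 23 bases with Mt-nd5 on the other strand, and whether reads were counted by strand is not given in the sources used here, so the values of this strand carry an unknown part from the other one. The minus-strand tRNA genes gave 61.1% to 86.0% of the tRNA reads, although they are 8 of 22 genes.

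**Figure D3:**
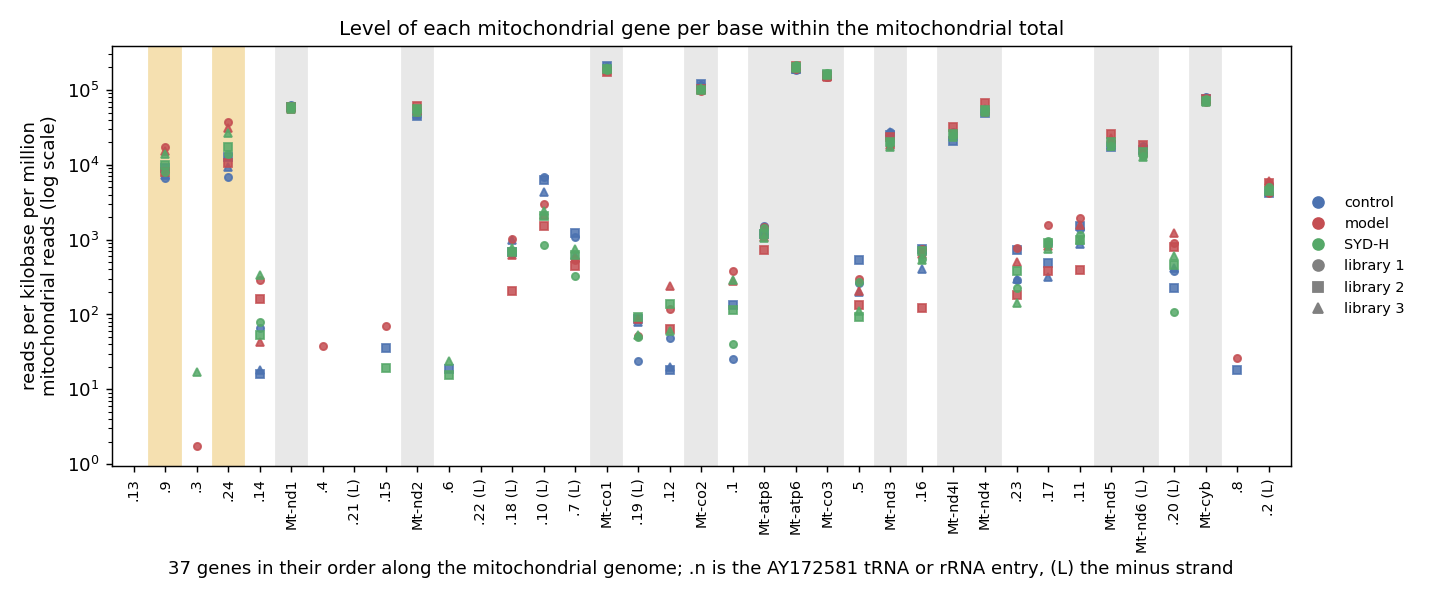
Reads per base, scaled to the mitochondrial total of each library (log axis), for the 37 genes in genome order, with single libraries as points. Ochre bands mark the rRNA genes and grey bands the mRNA genes, values of 0 are not drawn, and (L) marks the minus strand. The mRNA points nearly coincide across libraries, while rRNA and tRNA points spread, and AY172581.10 is highest in the 3 control libraries.

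On the deposited scale, FPKM of all 13 mRNA and both rRNA genes was higher in every operated library than in every control library, and the tRNA genes varied. limma was fitted to log2(FPKM + 1), on which changes of low genes are understated, and DEGs were called by the criteria of the study, namely p under 0.05 without adjustment and a log2 fold change of more than 1 in either direction. Of the 37 genes, 34 passed the filter of a mean FPKM of at least 0.5, the other 3 being the tRNA genes at 0. The filter is on the mean of all 9 libraries, so a gene high in 1 group could pass by that group alone.

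Between model and control, 23 of the 34 tested genes were DEGs, all of them higher in model, against 3.55% of all 13898 genes tested that were called as raised. They were both rRNA genes, 9 of the 13 mRNA genes, and 12 of the 19 tested tRNA genes. The median log2 fold change was 6.02 over the 34 genes and −0.225 over all genes tested. After Benjamini-Hochberg adjustment in limma, p stayed under 0.05 for 3 of them, all tRNA genes and all raised, compared with 0.237% of all genes. With all 9 libraries in 1 fit it was 23 of the 34, compared with 4.56% of all genes in either direction (limma). Without model library 2, 29 of the 34 were DEGs and raised, against 5.66% of all genes, and all 29 passed 0.05 after adjustment, against 18.9% of all genes in either direction (limma). Without any 1 of the control libraries the number passing after adjustment was 0, both of the 34 and of all genes tested (limma), and 17 to 19 of the 34 had an unadjusted p under 0.05.

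The longer rRNA gene AY172581.24 had an FPKM of 141, 288, and 172 in control libraries 1 to 3, 177907, 2887, and 72521 in model libraries 1 to 3, and 2013, 4140, and 31990 in SYD-H libraries 1 to 3. The shorter AY172581.9 had an FPKM of 135, 202, and 138 in control libraries 1 to 3, 81450, 2225, and 36700 in model libraries 1 to 3, and 1157, 2386, and 16516 in SYD-H libraries 1 to 3. Model library 2 was over 10 times lower than the other model libraries for both genes but still above every control library. The log2 fold change between model and control was 7.44 ± 1.63 (SE, limma adjusted p = 0.0763) for AY172581.24 and 6.91 ± 1.40 (SE, limma adjusted p = 0.0631) for AY172581.9.

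Mt-co1 had an FPKM of 4086, 4636, and 3756 in control libraries 1 to 3, 893529, 47804, and 444448 in model libraries 1 to 3, and 26997, 45790, and 235558 in SYD-H libraries 1 to 3. Mt-atp6 had an FPKM of 3765, 4234, and 3545 in control libraries 1 to 3, 896737, 57377, and 460472 in model libraries 1 to 3, and 31017, 48664, and 235961 in SYD-H libraries 1 to 3. For both genes all operated libraries lay above all control libraries, yet neither was called between model and control. The log2 fold change was 6.01 ± 3.86 (SE, limma adjusted p = 0.456) for Mt-co1 and 6.23 ± 3.84 (SE, limma adjusted p = 0.437) for Mt-atp6. Mt-co2 (log2 fold change 5.91, limma adjusted p = 0.308) and Mt-co3 (6.12, limma adjusted p = 0.380) were the other mRNA genes not called.

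The size of the change was similar over the mRNA genes, with log2 fold changes of 5.71 to 6.45, and the SE set which were called. The fit ties the variance of a gene to its mean level. Without this trend, an alternative chosen after seeing the data, all 13 mRNA genes were called in both comparisons with control. Some other alternatives called fewer mRNA genes between SYD-H and control, as given below. Between model and control, called mRNA genes included Mt-nd5 (log2 fold change 6.45 ± 1.27, SE, limma adjusted p = 0.0608) and Mt-nd2 (6.38 ± 1.79, SE, limma adjusted p = 0.126). They also included Mt-nd6 (6.10 ± 1.18, SE, limma adjusted p = 0.0583) and Mt-nd3 (5.71 ± 1.29, SE, limma adjusted p = 0.0797). The tRNA genes with an adjusted p-value under 0.05 were AY172581.2 (6.33 ± 1.01, SE, limma adjusted p = 0.0406), AY172581.20 (7.48 ± 1.11, SE, limma adjusted p = 0.0383), and AY172581.14 (6.84 ± 1.22, SE, limma adjusted p = 0.0483). AY172581.14, which lies between the longer rRNA gene and Mt-nd1, had only 3, 1, and 1 reads in the control libraries, so its fold change depends on the pseudocount.

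FPKM did not overlap between model and control for 27 of the 34 genes, all higher in model, against 8.65% of all genes tested. The other 7 were tRNA genes without a read in model library 2. Among them AY172581.1 had 415 and 279 reads in model libraries 1 and 3. AY172581.6 had 1 read in the control group, 0 in the model group, and a log2 fold change of −0.17 ± 0.17 (SE, limma adjusted p = 0.630). AY172581.4 had 44 reads in model library 1 and none in the other 8 libraries.

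Between SYD-H and model, 0 of the 34 genes were DEGs, against 4.15% of all genes tested that were called in either direction. Before adjustment, p was under 0.05 for 0 of the 34 genes and for 5.26% of all genes (limma), and after it for 0 of both. Every mRNA and rRNA gene had a lower mean in SYD-H, with log2 fold changes of −2.38 to −1.85 for the mRNA genes and −2.40 and −2.38 for the rRNA genes, and the SE of the mRNA genes was 1.40 to 5.89. Rescaled to TPM, the log2 fold changes of the mRNA genes were −0.72 to −0.20, while the median of all genes tested moved from 0.221 to 1.22, and relative to these medians the median of the mRNA genes was −2.30 on the FPKM and −1.64 on the TPM scale. With a library left out, log2 fold changes of the mRNA genes on the FPKM scale ranged from −3.49 (Mt-nd5) to −0.757 (Mt-atp8). Those of the rRNA genes ranged from −4.14 to −1.17 for AY172581.24 and from −3.94 to −1.34 for AY172581.9. The ratio of mean mitochondrial shares of reads between SYD-H and model was 0.619. All 34 genes overlapped between the groups, and in none of them did model library 2 lie above the highest SYD-H library. Without model library 2, 14 genes were called as lowered in SYD-H, against 4.12% of all genes, and the smallest adjusted p-value over the 34 genes was 0.106 (limma). A difference between these groups could therefore neither be shown nor bounded closely with 3 libraries each.

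Between SYD-H and control, 25 of the 34 genes were DEGs, all higher in SYD-H, against 7.25% of all genes tested that were called as raised. After adjustment (limma), 16 of them passed 0.05, all raised, compared with 7.75% of all genes. With all 9 libraries in 1 fit, 0 of the 34 passed (smallest adjusted p = 0.0814, limma), compared with 1.82% of all genes, and 26 had an unadjusted p under 0.05. FPKM lay higher without overlap for 27 of the 34 genes, against 20.3% of all genes tested. The 25 were both rRNA genes, 11 mRNA genes without Mt-co1 and Mt-atp6, and 12 tRNA genes. Called mRNA genes numbered 5 without the filter, 7 with a pseudocount of 0.1, and 8 with the replicate block. They numbered 9 with rescaling to reads outside the mitochondrial genes. With TPM, all 9 libraries in 1 fit, or the filter at a mean FPKM of 1, 13 were called. Without control libraries 1 to 3 in turn 7, 6, and 6 were called, and without SYD-H libraries 1 to 3 10, 9, and 13. The log2 fold change was 5.06 ± 1.06 (SE, limma adjusted p = 0.0300) for AY172581.24 and 4.51 ± 0.99 (SE, limma adjusted p = 0.0335) for AY172581.9. Among the mRNA genes it was 3.60 ± 0.82 (SE, limma adjusted p = 0.0373) for Mt-nd3, the lowest, and 4.28 ± 1.00 (SE, limma adjusted p = 0.0390) for Mt-nd2, the highest. The other mRNA genes with an adjusted p-value under 0.05 were Mt-nd4, Mt-nd4l, Mt-nd5, Mt-nd6, and Mt-atp8. The tRNA genes with one were AY172581.2, AY172581.11, AY172581.16, AY172581.17, AY172581.18, AY172581.19, and AY172581.23, whose log2 fold changes ran from 3.14 (AY172581.23) to 4.69 (AY172581.17). AY172581.10 had a log2 fold change of 2.26 ± 1.11 (SE, limma adjusted p = 0.210) and overlapped with control. With a library left out, this fold change ranged from 1.09 to 3.35. The number of the 34 genes with an adjusted p-value under 0.05 (limma) was 24 without SYD-H library 3, against 25.4% of all genes, and 3 without SYD-H library 2, against 11.4%. It was 1 without control library 1, against 5.45% of all genes, and 0 without control library 2 or 3, against 4.26% and 1.5%.

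**Figure D4:**
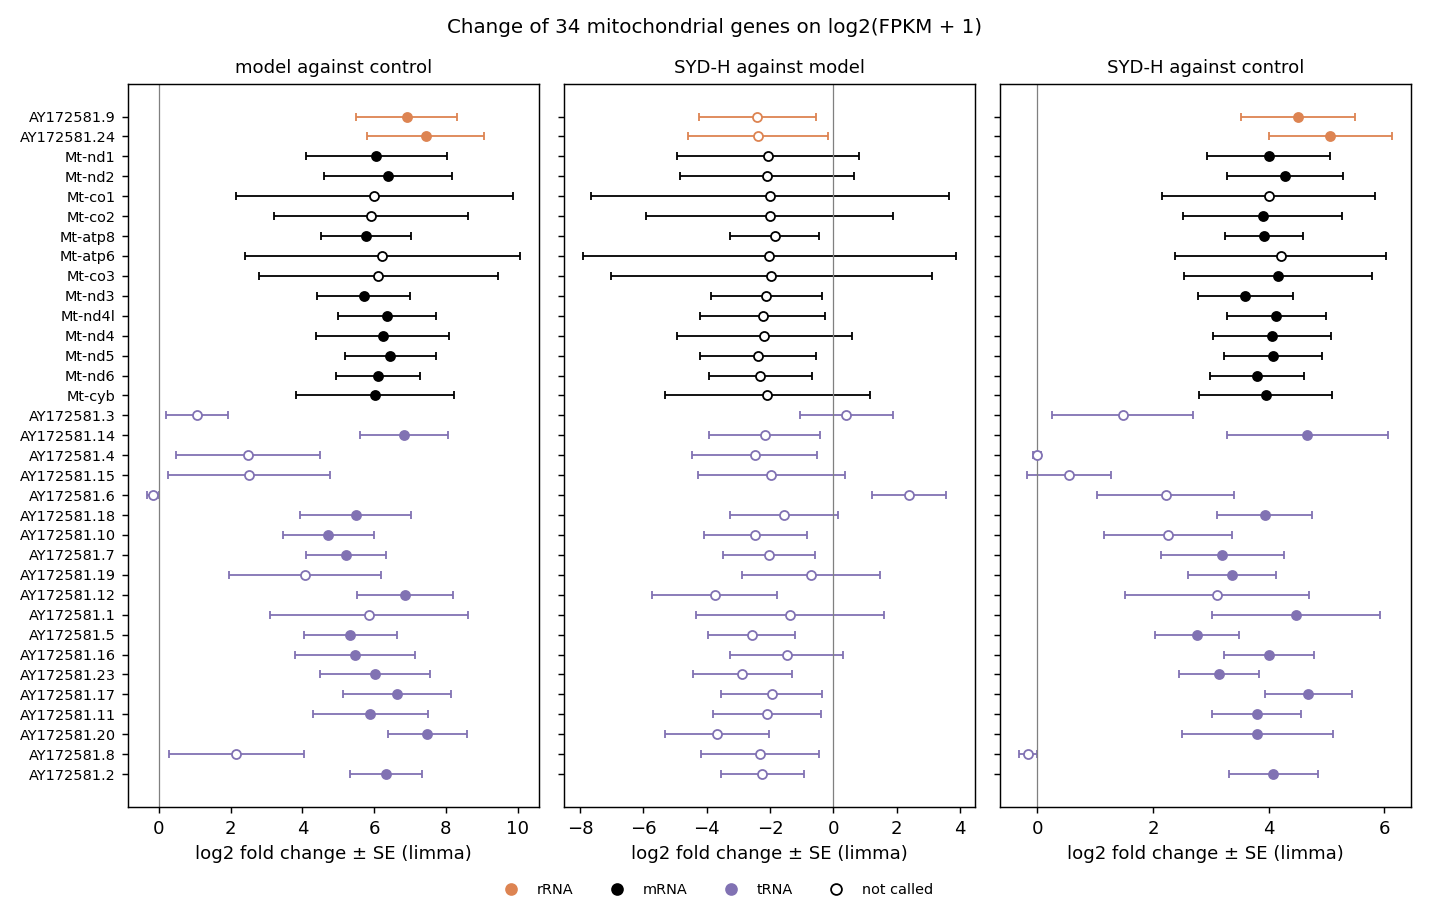
Log2 fold change ± SE of the 34 tested genes in the 3 comparisons, from limma on log2(FPKM + 1), by class and genome order. Open points are genes that were not called. Within each comparison with control the mRNA genes have similar changes, and the widest bars are those of Mt-co1, Mt-atp6, and Mt-co3.

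The nuclear genes that serve this genome were considered next. Of a list of 41 nuclear genes for copying mitochondrial DNA and for making, cutting, and degrading its RNA, 39 were tested. Between model and control 4 of the 39 were called, all lowered, which is near the 11.2% of all genes tested that were called as lowered, and the median log2 fold change was −0.34. The 4 were Tfam, which packages mitochondrial DNA and starts its transcription, Polg2, the accessory subunit of its polymerase, Prorp, the nuclease of the RNase P that cuts tRNAs at their 5′ end, and Nrf1, a nuclear factor that drives many of these genes. Tfam had an FPKM of 8.95, 12.8, and 11.4 in control libraries 1 to 3, 0, 5.88, and 3.21 in model libraries 1 to 3, and 6.78, 6.69, and 4.81 in SYD-H libraries 1 to 3. Its log2 fold change was −1.96 ± 0.73 (SE, limma adjusted p = 0.217) between model and control and −0.76 ± 0.20 (SE, limma adjusted p = 0.04998) between SYD-H and control. Model library 1, where Tfam was at 0, had only 1744769 reads outside the mitochondrial genes. Of the 41 genes, 16, 1, and 10 were at 0 in model libraries 1 to 3. In SYD-H libraries 1 to 3 these numbers were 0, 0, and 4, and in every control library 0.

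Between SYD-H and control, 3 genes of the list passed 0.05 after adjustment (limma), against 17.3% of all genes tested. Beside Tfam they were Fastk, of a family of mitochondrial RNA-binding proteins, which was higher (log2 fold change 0.52 ± 0.12, SE, adjusted p = 0.0404), and Mgme1, an exonuclease of mitochondrial DNA replication, which was lower (−0.72 ± 0.18, SE, adjusted p = 0.0486). By the criteria of the study, 1 gene of the list was called here, the lowered Mterf3, of the family of mitochondrial transcription termination factors, against 9.22% of all genes called as lowered. Between SYD-H and model 1 was called, the lowered Trnt1, which adds the CCA end to tRNAs, against 0.532% of all genes called as lowered. Polrmt, the mitochondrial RNA polymerase, and Lrpprc, which stabilizes the mRNAs, were called in none of the 3 comparisons. The genes in this paragraph and the one before it other than Tfam, Fastk, Mgme1, Polrmt, and Lrpprc were named after their values were seen.

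Nuclear genes for subunits of the same respiratory complexes were not called. Of 71 such genes, 65 were matched and 62 tested, and 0 were called in any comparison, against 14.7%, 4.15%, and 16.5% of all genes between model and control, SYD-H and model, and SYD-H and control. Before adjustment (limma), p was under 0.05 for 7, 0, and 13 of them, against 19.2%, 5.26%, and 34.5% of all genes. Their median log2 fold changes were 0.04, −0.10, and −0.01. After adjustment (limma), 2 of them passed 0.05 between SYD-H and control, Atp5f1e (0.86 ± 0.21, SE, adjusted p = 0.0431) and Atp5f1a (−0.66 ± 0.17, SE, adjusted p = 0.0466), both subunits of the ATP synthase, and these were named after their values were seen.

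Markers of other cell types also differed between the libraries. Summed FPKM of the 8 matched erythroid genes of 9 was 6541 to 16249 in control, 38196, 296, and 42460 in model libraries 1 to 3, and 1310, 1875, and 13572 in SYD-H libraries 1 to 3. Among the operated libraries it was thus highest in the same 3 that had the highest mitochondrial and rRNA shares, and lowest in model library 2. Hba-a1 and Hbb carried the sum, and Epb42 was at 0 in model library 2. Gene by gene, the list differed from its sum. Between model and control, 0 of the 8 genes were called, with a median log2 fold change of −1.90, and between SYD-H and control 5 were called, all lowered, with a median of −2.84. Neutrophil genes, of which 9 were tested, were called as lowered in 5 cases between model and control and in 7 between SYD-H and control. B-lineage genes, of which 8 were tested, were called as lowered in 7 and 6 cases, and the shares of all genes called as lowered were 11.2% and 9.22%. Summed FPKM of the neutrophil list was 3138 to 5956 in control, 7984, 72.5, and 1996 in model libraries 1 to 3, and 541, 863, and 3427 in SYD-H libraries 1 to 3, also highest among the operated libraries in the same 3. The B-lineage list summed to 285 to 367 in control, 27.4 to 59.5 in model, and 21.8 to 55.1 in SYD-H. The 15 chondrocyte genes summed to 12040, 502, and 6150 in control libraries 1 to 3, 206 to 828 in model, and 191 to 1473 in SYD-H, and Matn1 was at 0 in all 6 operated libraries. Of these 15 genes, 10 were called as lowered in model, and 1 in SYD-H, compared with control, with median log2 fold changes of −3.35 and −2.01. Control library 2 was low in this list (Col2a1 at an FPKM of 348, compared with 8323 and 4468 in the other control libraries). The 8 osteoblast genes summed to 3013 to 5992 in control, 2650, 7481, and 1262 in model libraries 1 to 3, and 10520, 8584, and 7808 in SYD-H libraries 1 to 3, highest of the model group in library 2 and above every control library in SYD-H. The 12 matched skeletal muscle genes of 14 summed to 22.7 to 394 in control, 40.2 to 1275 in model, and 36.2 to 1396 in SYD-H. The 10 photoreceptor genes, checked because the labels describe RNA extraction from retina, summed to at most 3.50 in any library. The part of these cell types in the mitochondrial values was not tested. In such bulk samples, fewer cells of a type and less RNA per cell cannot be told apart. Reads outside the mitochondrial genes numbered at least 14306782 in control, but as few as 1744769 in model and 5153851 in SYD-H. The effect of this depth on the calls in these lists was not tested.

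Outside the mitochondrial genome, the FPKM of 13864 genes was set against the mitochondrial share of reads over the 9 libraries. A Spearman rho of at least 0.95 was found for 31 genes and a negative one of the same strength for 65, both given here as a description. Edf1 had a rho of 1, and Sap30l, LOC100910754, and an unnamed locus had a rho of 0.983. Nudt4 was 1 of 8 genes tied next at 0.967. For Edf1, FPKM was 9.63, 9.96, and 8.52 in control libraries 1 to 3, 18.4, 13.4, and 15.3 in model libraries 1 to 3, and up to 14.1 in SYD-H library 3, the highest of its group. The 9 points share the authors' scaling, whose library size was lowest in the 3 libraries with the highest mitochondrial share, and they come from 3 groups, 1 of which lies far below the others.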

How the data were processed

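RNA was sequenced from rat knee cartilage, as 9 libraries that the sample labels divide evenly among control, model, and SYD, the last called SYD-H here. The authors deposited 1 table of FPKM values for 32043 genes and 9 libraries, beside positions, strands, lengths, and biotypes. The submitters' processing notes name HISAT2 2.0.5 and hg38, which is a human build, although the gene identifiers are those of rat. The rat build, annotation, counting tool, and strand setting are not given in the sources used here. Libraries were made with the TruSeq RNA kit per the labels. Nuclear copies of mitochondrial sequence could share reads with these genes, so values are uncertain to that extent.

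FPKM times gene length was a whole multiple of 1 step per library for 100% of values above 0 (tolerance 0.1), and the reads recovered so were used for all shares. Reads are not molecules, and intervals and the floor of 3 reads cover counting error only. Shares and ratios were compared with exact permutation tests. The main test was limma 3.58.1 (R 4.3.3, lmFit, eBayes with a trend) on log2(FPKM + 1), two-sided, in the 6 libraries of a pair of groups. It covered 13898 genes, those whose mean FPKM reached 0.5, with Benjamini-Hochberg adjustment over these genes. The fit was tested on counts simulated around the control means, with smaller changes and less spread than these genes had. That test therefore does not bear on the calls of these genes. Shares and figures were computed with Python 3.11.15 and scipy 1.17.1.

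The members, gene lists, and tests were chosen with earlier results of these data known. All 37 genes could be named, with values in every library (FPKM, share, or reads) for the rRNA and mRNA genes, the tRNA genes that passed 0.05 after adjustment in any comparison, and the 3 tRNA genes with the highest mean, and with ranges or counts for the others. Of the nuclear list for mitochondrial gene expression, those that passed 0.05 after adjustment were named, with Tfam, Polrmt, and Lrpprc. The 5 genes with the highest Spearman rho to the mitochondrial share were sought, with a tie at the last place. Lists were matched by symbol where exactly 1 entry carried it. Alternatives were the pseudocount, the filter, rescaling to TPM or to reads outside the mitochondrial genes, all libraries in 1 fit, the replicate number as a block, each library left out, overlapping genes left out, and, chosen after seeing the data, no trend in the variance and shares of mRNA reads. The deposited library size already followed the reads outside the mitochondrial genes, so rescaling to them was close to the main fit. The sequences of these genes were not used here. No sample column was left out (0 columns).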

Additional observations from a re-analysis of the deposited data

How the results depend on the processing

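Neither the number of mitochondrial genes called between model and control (23) nor that between SYD-H and control (25) changed by more than 1.5 times under any alternative run except adjustment, and all called genes stayed raised. With an adjusted p under 0.05 in place of the criteria of the study the counts were 3 and 16, and 0 to 29 and 0 to 24 with a library left out. By adjusted p they were 23 and 0 with all 9 libraries in 1 fit, 0 and 0 with the replicate block, 25 and 22 with TPM, 8 and 22 without the trend, and 3 and 6 without the filter. By the criteria of the study, the counts with a library left out ranged from 17 to 29 and from 17 to 27. Between SYD-H and model, where 0 genes were called, 3 were called with all 9 libraries in 1 fit (1 raised and 2 lowered), 1 with the replicate number as a block (lowered), 1 with TPM (raised), and 0 to 14 with a library left out (14 lowered without model library 2, 1 raised without SYD-H library 1, and 1 lowered without SYD-H library 3). TPM moved the median log2 fold change of all genes tested between model and control to −2.60, relative to which the median of the mitochondrial genes was 5.43. The class shares kept their direction in all 27 alternative values of each class, but not their size. With a library left out, the rRNA difference ranged from 2.10 (without model library 1) to 4.69 percentage points (without model library 2) between model and control, from −2.89 (without model library 2) to −0.296 (without model library 1) between SYD-H and model, and from 1.06 (without SYD-H library 3) to 2.35 between SYD-H and control. The tRNA difference ranged from −0.0260 to −0.00377 (without model library 2) between model and control. The number of mRNA genes apart between SYD-H and model, 3, rose to 5 without SYD-H library 2, model library 1, or model library 2, and that between model and control, 6, ranged up to 9 (without control library 1), smaller groups being apart more easily. The minus-strand share between model and control turned from −0.0428 to 0.00346 percentage points with mRNA genes alone, and ranged from −0.102 to 0.0262 with a library left out, being positive without model library 1. The log2 ratio of long to short rRNA between SYD-H and model, 0.02, ranged from −0.206 (without model library 2) to 0.170 and was −0.03 without SYD-H library 3. Of the tested tRNA genes, 2 had a positive log2 fold change between SYD-H and model, 6 with TPM, and 5 without model library 1. Among the genes named by rule, those that turned positive with TPM were 3 (AY172581.16 0.19, AY172581.18 0.0949, and AY172581.19 1.28), and AY172581.19, at −3.31 to 0.65 over the libraries left out, was also positive at a pseudocount of 0.1 (0.32) and without model library 1 (0.65), model library 3 (0.55), or SYD-H library 1 (0.04). The cause was not tested. Deviations of same-numbered libraries had correlations of −0.267 to 0.194 over the 3 comparisons, and those of differently numbered ones −0.309 to 0.2625. With 3 libraries a group, these values cannot decide whether the numbers pair the libraries. The replicate block gave 19 called genes for model against control and 22 for SYD-H against control. Of the tRNA genes, 5 had no read in the control group and 3 of these none in any library, and with 3 libraries a group the exact permutation test of a share cannot go below p = 0.1.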
